A study of Arabidopsis thaliana with 8 samples.

Results

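The genes described here encode the carbon-fixing cycle of the chloroplast and the photorespiratory pathway of Arabidopsis thaliana. They were chosen by gene identifier and role, with no measured value in the rule, as the nuclear genes for the Rubisco small subunits and Rubisco activase (5 genes), other Calvin cycle enzymes (14), the CP12 proteins (3), the glycolate pathway and peroxisome (7), and the glycine, serine, glycerate and nitrogen steps (7). That gives 36 of the 32678 genes counted, and all 36 were found in the RefSeq annotation and had enough reads to be tested. The set was nonetheless picked with earlier results of these data known. RNA came from whole plants of 4 lines, each kept at 75 or at 0 mM NaCl, and every line has 1 library per salt level. T31-5 and T43-11 are labelled as salt tolerant and as expressing 3F-VP16, a fusion of an artificial transcription factor with the viral activation domain VP16. The empty vector control is labelled as expressing VP16 without the factor, and Col-0 is the wild type. Each transgenic line is a single line, and neither the promoters of the transgenes nor plant age nor the length of the salt treatment is given.

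The Calvin cycle joins carbon dioxide to ribulose bisphosphate through Rubisco, reduces the product with ATP and NADPH from the light reactions, and rebuilds the acceptor. When Rubisco takes oxygen in place of carbon dioxide, phosphoglycolate is formed, and photorespiration returns most of its carbon to the cycle through chloroplast, peroxisome and mitochondrion, releasing carbon dioxide and ammonia on the way. These genes are expressed mainly in green tissue, respond to light, sugar and the circadian clock, and include some of the most abundant transcripts of a leaf.

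The Rubisco small subunit genes show how close some of the 36 sequences are. RBCS1B, RBCS2B and RBCS3B lie next to each other on the minus strand of chromosome 5, and their coding sequences are 96.7 to 97.3% identical between pairs. Across the 3 genes 25 coding positions differ, and the longest run without a difference is 89 bases. Coding bases 91 to 150, the stretch with the most differences, are printed from RefSeq (TAIR10.1), with the 8 differing positions in capitals, because reads must be told apart at such positions.
RBCS1B, chr5:15385006-15385065: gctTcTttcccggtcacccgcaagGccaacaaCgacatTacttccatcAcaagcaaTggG
RBCS2B, chr5:15381829-15381888: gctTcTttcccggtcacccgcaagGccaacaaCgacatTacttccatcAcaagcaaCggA
RBCS3B, chr5:15378157-15378216: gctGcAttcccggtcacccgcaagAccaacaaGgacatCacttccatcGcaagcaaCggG
In this stretch RBCS1B and RBCS2B differ from each other only near its end, while RBCS3B differs from both along its length. Of all 50-base windows in the transcripts, 14.0% of RBCS1B, 21.4% of RBCS2B and 18.3% of RBCS3B occur exactly in another gene, so the counts of these genes are less certain than that of RBCS1A (1.48%). PGLP1 shares 100% of its windows with a neighbouring copy, AT5G36790. The ratio of its count to that of the copy was 0.967 to 1.05 in the 8 libraries, so PGLP1 values stand for about equal parts of the pair's reads. Of RPI3 windows 19.7% were shared, with a gene on the opposite strand, and 11 of the 36 genes overlap another annotated gene. For 9 of these the other gene lies on the opposite strand and its reads cannot be told apart without strand, and GAPA1 and PDTPI overlap a gene on the same strand.

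Reads assigned to genes came to between 13007480 (Col-0 at 75 mM) and 22820814 (T31-5 at 75 mM) per library. The libraries labelled T43-11 at 75 and at 0 mM were nearly equal, and the one at 0 mM was close to T31-5 at 75 mM, so its salt label may be wrong, which these values cannot settle. In T43-11 the log2 ratio of 75 over 0 mM lay between -0.08 and 0.11 for each of the 36 genes. Every value given for T43-11 at 0 mM is that of the library so labelled, and directions drawn from it depend on that label. The unsalted libraries of T31-5 and the empty vector line were also close, with log2 ratios of T31-5 over the empty vector from -0.04 to 0.18 over the 36 genes. A row named T31, present in the count tables beside the Arabidopsis genes, had 67 reads at 75 mM and 106 at 0 mM in T31-5. The same row had 587 (75 mM) and 500 (0 mM) reads for T43-11, 68 and 83 for the empty vector control, and 0 for Col-0. A row named T43 had 711 and 606 reads in T43-11 and at most 1 elsewhere. The libraries labelled T31-5 thus stood at the level of the empty vector line in the T31 row, which did not tell these lines apart. For these reasons the salt response was described without T43-11 first and with it afterwards, and counts were repeated with T31-5 and the empty vector line summed or with one of them left out.

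Levels differed widely within the set. Per kilobase of annotated exon, the mean over all libraries was highest for RBCS1A at 8582 CPM per kilobase (read counts scaled to library depth with TMM factors), followed by RCA at 5664, RBCS3B at 3108 and RBCS2B at 2423. FBA2 led the Calvin cycle enzymes at 1799.6 CPM per kilobase, GGT1 the peroxisomal steps at 1368, SHM1 the glycine and serine steps at 1017 and CP12-1 its family at 548. The 36 genes together took 5.63 to 6.05% of gene reads at 75 mM and 8.31 to 9.68% at 0 mM in the lines other than T43-11, and the ranges did not overlap. The T43-11 libraries were at 5.62% with salt and 5.49% without, both below every unsalted library of the other lines. In whole plants fewer leaf cells and less of these transcripts per cell cannot be told apart.

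How the genes responded to salt was asked first in the wild type, the empty vector line and T31-5 (named the 3 lines from here on, with values given in that order), with line as a block and the lines as replicates. Transcripts for nearly every step were lower with salt. Of the 36 genes 34 fell, against 14.4% of all 20585 genes tested, 1 rose, against 15.5%, and 1 did not pass (edgeR quasi-likelihood test, Benjamini-Hochberg adjusted p under 0.05). The median log2 fold change was -0.68 over the 36 genes and 0.03 over all genes. At 33 of the 36 genes every salted library was below every unsalted one, which held for 20.5% of all genes, and at 2 genes (TKL2 and CP12-3) every salted library was above, against 23.8%. Taken 1 line at a time, without a test, the median log2 ratio of the 36 genes was -0.75 for Col-0, -0.62 for the empty vector and -0.67 for T31-5 plants. The p-values take their error from how the salt response varied between the 3 lines, with variance estimates shared across genes. No repeated libraries of a line enter them.

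**Figure D1:**
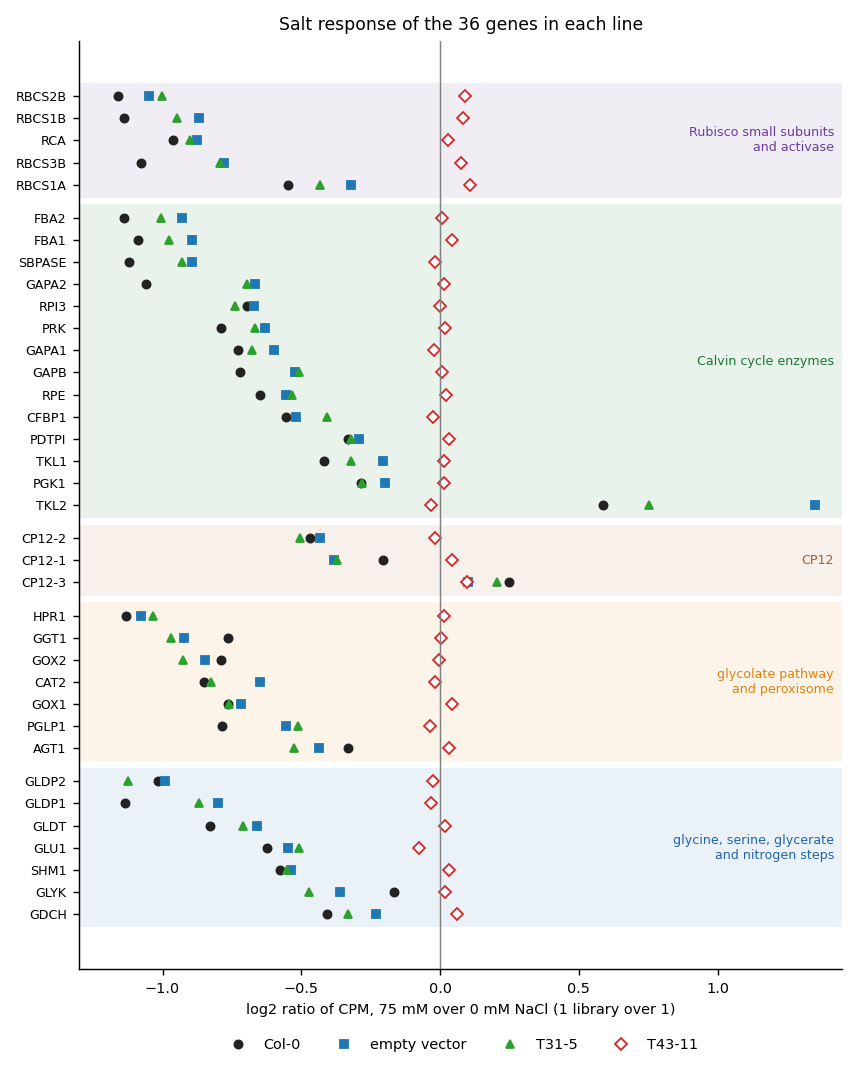
Log2 ratio of CPM at 75 mM over 0 mM NaCl (1 library over 1) for each of the 36 genes, grouped by role, with filled symbols for the 3 lines and open diamonds for T43-11. In each of the 3 lines 34 genes lie left of 0 and TKL2 and CP12-3 right of it, while all points of T43-11 lie between -0.08 and 0.11.

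RBCS1A (AT1G67090, chr1:25048158-25049667) encodes the small subunit with the highest level per kilobase. It had 9928, 9687 and 9294 CPM at 75 mM (Col-0, empty vector, T31-5), against 14512, 12108 and 12531 CPM at 0 mM. Every salted library was below every unsalted one, and the log2 fold change was -0.43 ± 0.07 (SE; edgeR adjusted p = 0.00554). The other small subunit genes fell too, with lower log2 fold changes (given in parentheses after a gene from here on, with SE where shown), RBCS2B (-1.07 ± 0.06), RBCS1B (-0.98 ± 0.07) and RBCS3B (-0.88 ± 0.08). RBCS2B, for example, had 1588, 1549.6 and 1650.2 CPM at 75 mM against 3553, 3206 and 3305 CPM at 0 mM. The make-up of the small subunit reads therefore shifted. RBCS1A took 58.9 to 61.0% of them at 75 mM and 51.1 to 51.4% at 0 mM in the 3 lines, and both T43-11 libraries lay within the salted range. The ranges of the 3 lines did not overlap, but 3 libraries against 3 cannot give an exact p below 0.1. RCA (AT2G39730) encodes Rubisco activase, which frees the active site of inhibitory sugar phosphates. It had 9925, 8552 and 8555 CPM at 75 mM, against 19327, 15686 and 15981 CPM at 0 mM, a log2 fold change of -0.91 ± 0.06 (edgeR adjusted p = 0.000508). Values by library for RCA, and below for HPR1, CAT2 and GLDP2, were chosen after they were seen.

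**Figure D2:**
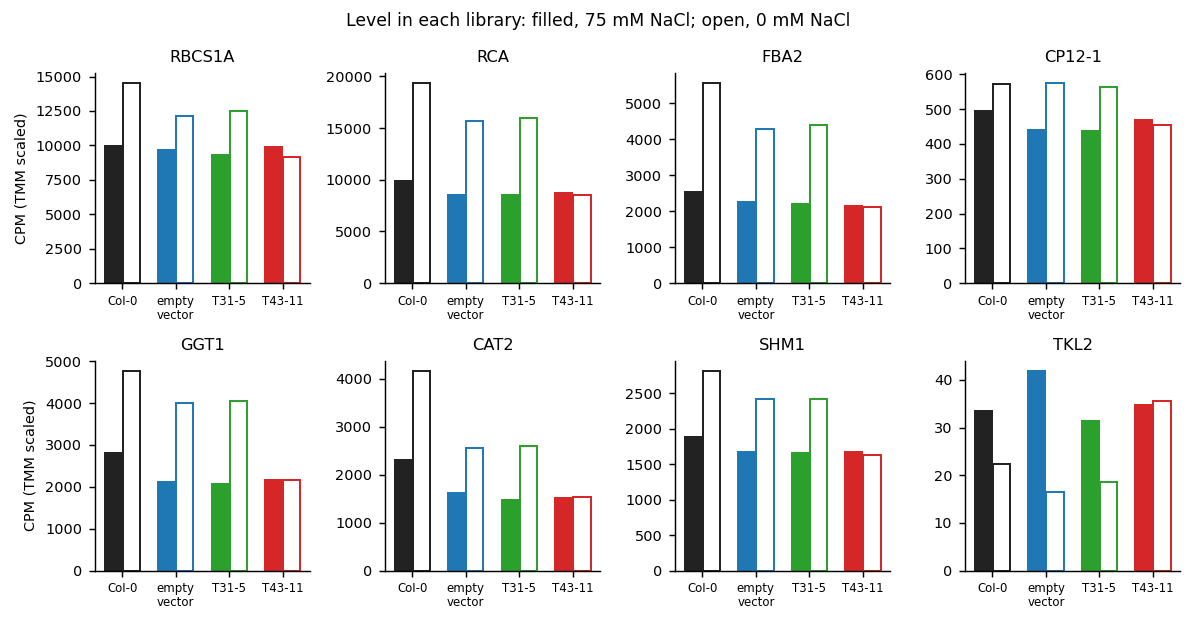
CPM (TMM scaled) in each library for 8 genes, with filled bars for 75 mM and open bars for 0 mM NaCl in each line. Salted bars are the lower ones in the 3 lines for every gene but TKL2, and both T43-11 bars stand near the salted bars of the other lines.

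The promoters of RBCS2B and of CFBP1, the gene for chloroplast fructose bisphosphatase, are shown because they hold both of a pair of short elements known from light-regulated plant genes, the G-box (CACGTG) and the I-box (GATAAG, or CTTATC on the other strand). Each sequence is the 300 bases before the outermost annotated transcript start (RefSeq, TAIR10.1), counted back from -1, and the elements are in capitals.
RBCS2B, chr5:15382072-15382371, minus strand: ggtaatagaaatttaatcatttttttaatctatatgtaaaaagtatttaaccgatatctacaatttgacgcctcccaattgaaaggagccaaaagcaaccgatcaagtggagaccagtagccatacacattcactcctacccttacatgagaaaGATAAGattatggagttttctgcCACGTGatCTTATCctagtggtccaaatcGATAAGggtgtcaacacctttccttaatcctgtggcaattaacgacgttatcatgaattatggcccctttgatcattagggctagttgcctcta
CFBP1, chr3:20016537-20016836, plus strand: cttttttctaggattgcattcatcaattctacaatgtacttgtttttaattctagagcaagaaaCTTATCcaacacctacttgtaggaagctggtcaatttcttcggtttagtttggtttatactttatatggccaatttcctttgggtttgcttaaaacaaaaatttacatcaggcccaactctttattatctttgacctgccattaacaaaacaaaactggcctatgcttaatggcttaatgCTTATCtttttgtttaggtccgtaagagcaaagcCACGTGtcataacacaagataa
In RBCS2B an I-box at -146, the G-box at -123 and I-boxes at -115 and -94 lie close together, whereas in CFBP1 I-boxes at -236 and -56 stand apart from the G-box at -22. Searched on both strands, the G-box was in 6 of the 36 windows (16.7%), against 7.88% of 20067 windows of the same length before tested protein-coding genes. One of the 6 belongs to TKL2, which rose with salt. The I-box was in 6 of 36 (16.7%), against 14.6%, and the core of the evening element (AATATCT), a clock element, in 3 of 36 (8.33%), against 11.9%. The core of the abscisic acid element (ACGTG), which every G-box contains, was in 11 of 36 (30.6%), against 26.4%. These counts describe letters in the windows and not binding. Bases inside the annotated transcripts were not searched. The end of the RBCS1B window resembles RBCS2B up to its I-box at -146. The stretch of RBCS1B to compare with the RBCS2B elements thus lies outside its window.

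Of the 14 other Calvin cycle genes 13 fell and TKL2 rose. FBA2 (AT4G38970, chr4:18163496-18166008) encodes a plastid aldolase. It had 2524, 2249.9 and 2187 CPM at 75 mM, against 5553, 4289.6 and 4386 CPM at 0 mM. The salted libraries were all lower, by a log2 fold change of -1.02 ± 0.07 (edgeR adjusted p = 0.000518). FBA1, the other main plastid aldolase, fell (-0.99) and SBPASE, the sedoheptulose bisphosphatase of the regeneration phase (-0.98). Among the subunits of the chloroplast glyceraldehyde phosphate dehydrogenase, which reduces the first product, GAPA2 fell (-0.81), GAPA1 (-0.67) and GAPB (-0.58). PRK, the phosphoribulokinase that makes the acceptor, and RPI3, a ribose phosphate isomerase, both fell (-0.70), and RPE, the ribulose phosphate epimerase (-0.58). Smaller falls were found for CFBP1 (-0.49), TKL1, the main plastid transketolase (-0.31), PDTPI, the plastid triose phosphate isomerase (-0.31), and PGK1, a phosphoglycerate kinase (-0.25). TKL1 was the 1 falling gene of all 36 whose salted and unsalted libraries overlapped, with 1729, 1483 and 1394 CPM at 75 mM against 2309, 1709.9 and 1742 CPM at 0 mM.

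TKL2 (AT2G45290, chr2:18672497-18676484), the second transketolase gene, was the least abundant of the set at 8.73 CPM per kilobase and the one gene that rose. It had 33.6, 42.0 and 31.5 CPM at 75 mM, against 22.3, 16.4 and 18.6 CPM at 0 mM. All salted libraries were above all unsalted ones, with the widest gap in the empty vector line, and the log2 fold change was 0.90 ± 0.16 (edgeR adjusted p = 0.0119). The T43-11 libraries had 34.7 CPM with salt and 35.6 CPM without, within the salted range of the other lines.

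CP12 proteins hold glyceraldehyde phosphate dehydrogenase and PRK in an inactive complex in the dark. CP12-1 (AT2G47400, chr2:19446730-19447642) had 495, 441 and 437 CPM at 75 mM, against 571, 574 and 564 CPM at 0 mM, and fell (-0.32 ± 0.06, edgeR adjusted p = 0.0125). CP12-2 fell (-0.47 ± 0.05). CP12-3, with 12.5, 11.6 and 13.0 CPM at 75 mM against 10.5, 10.8 and 11.3 CPM at 0 mM, did not pass at a log2 fold change of 0.19 ± 0.09 (edgeR adjusted p = 0.182).

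All 7 genes of the glycolate pathway and peroxisome fell. GGT1 (AT1G23310, chr1:8268385-8272021) encodes the glutamate:glyoxylate aminotransferase, which turns glyoxylate into glycine. It had 2811, 2110.4 and 2063 CPM at 75 mM, against 4776, 4002 and 4037 CPM at 0 mM, a log2 fold change of -0.89 ± 0.07 (edgeR adjusted p = 0.000626). HPR1, the peroxisomal hydroxypyruvate reductase, had the lowest fold change of the set, -1.08 ± 0.06 (edgeR adjusted p = 0.000419). Its levels were 754, 638 and 650.2 CPM at 75 mM, against 1651, 1346 and 1330.2 CPM at 0 mM, so that salted plants had 45.7, 47.4 and 48.9% of the unsalted level of their line. Of the glycolate oxidases, which make hydrogen peroxide, GOX2 fell (-0.85) and GOX1 (-0.75). PGLP1, the phosphoglycolate phosphatase of the first step, fell (-0.62), and AGT1, the serine:glyoxylate aminotransferase (-0.43). CAT2, the catalase that removes the hydrogen peroxide of photorespiration, had 2313, 1626 and 1466 CPM at 75 mM, against 4171, 2549 and 2598 CPM at 0 mM, and fell (-0.77 ± 0.07, edgeR adjusted p = 0.000908).

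The other catalase genes went the opposite way. CAT3, with 1720.4, 1899 and 2009 CPM at 75 mM against 639.6, 1149.6 and 1123 CPM at 0 mM, rose by 0.996 ± 0.148 (edgeR adjusted p = 0.00852), and CAT1 rose by 0.62 ± 0.11 (edgeR adjusted p = 0.0111). CAT2 therefore made up 56.2, 45.1 and 41.2% of catalase reads at 75 mM, against 85.9, 67.9 and 68.7% at 0 mM. The T43-11 shares were 36.9% with salt and 37.6% without, below that of every other library. In Arabidopsis CAT2 and CAT3 are both under the circadian clock, with peaks at opposite times of day.

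**Figure D3:**
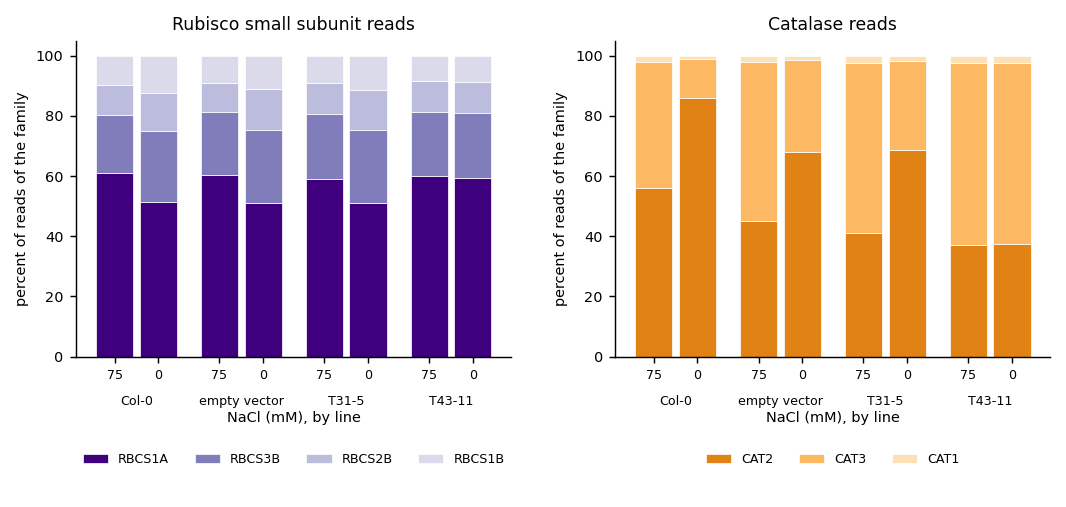
Percent of the Rubisco small subunit reads taken by RBCS1A, RBCS3B, RBCS2B and RBCS1B, and percent of catalase reads taken by CAT2, CAT3 and CAT1, in each library, with 75 mM left of 0 mM NaCl for each line. In the 3 lines the RBCS1A share is higher and the CAT2 share lower at 75 mM, and in T43-11 both bars look alike.

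All 7 genes of the glycine, serine, glycerate and nitrogen steps fell. SHM1 (AT4G37930, chr4:17831731-17835017) encodes the mitochondrial serine hydroxymethyltransferase. It had 1890.4, 1669 and 1652 CPM at 75 mM, against 2822, 2421 and 2422 CPM at 0 mM, a log2 fold change of -0.56 ± 0.06 (edgeR adjusted p = 0.00139). Its partner, the glycine decarboxylase complex, had the larger falls in both genes of the P protein. GLDP2 had 1215, 873 and 831 CPM at 75 mM, against 2461, 1734.9 and 1813 CPM at 0 mM, and fell (-1.04 ± 0.06, edgeR adjusted p = 0.000443). GLDP1 fell (-0.93), GLDT, the T protein (-0.73), and GDCH, an H protein (-0.32). GLU1, the ferredoxin-dependent glutamate synthase that takes back the released ammonia, fell (-0.56), and GLYK, the glycerate kinase that closes the pathway (-0.33).

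The smaller falls depended on the analysis. Under 9 alternative settings 25 of the 34 falling genes passed in each one, RBCS1A and CAT2 in 8, AGT1, GDCH and PDTPI in 6, CP12-1 in 5, and PGK1, TKL1 and GLYK in 4. Scaling by library totals alone moved the median log2 fold change of all genes to 0.16, against 0.03 with TMM. With it 30 of the 36 genes fell and 2 rose (TKL2 and CP12-3), against 9.66% and 26.8% of all genes.

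Many of the enzymes have relatives in Arabidopsis, and some of these serve other compartments or tissues. From the same families 23 genes outside the set were placed beside it, whatever their compartment, a choice made with the values known. Of these relatives 8 rose, 4 fell and 11 did not pass, with a median log2 fold change of 0.14. Of all genes 15.5% rose and 14.4% fell. With library totals as the scaling 11 relatives rose and 2 fell, against 26.8% and 9.66% of all genes. In each of 13 families the gene with the highest level per kilobase was compared with the rest. Of these leading genes 12 fell and 1 rose, CTIMC, the cytosolic triose phosphate isomerase, by 0.24 ± 0.06. Every leading gene but CTIMC and GDCH3, an H protein gene, belongs to the set. The falls of the leading genes from the set are thus those given above and no second result. Of the 28 other forms 8 rose, 9 fell and 11 did not pass. Genes of the set are among these forms too, with GAPA2, GAPB, FBA1, PDTPI, GOX2 and GDCH falling and TKL2 rising. Scaled by library totals, 1 leading gene rose and 10 fell, and 11 of the other forms rose and 7 fell, so which direction was the more common among the other forms depends on the scaling. With T31-5 and the empty vector line summed, 10 leading genes fell and none rose, against 7.81% and 7.18% of all genes. Without the empty vector line 4 of the relatives rose and 1 fell, against 4.23% and 5.36%. GOX3, a relative of the glycolate oxidases that acts on lactate in Arabidopsis roots, rose by 0.87 ± 0.12, where GOX1 and GOX2 fell. GLU2, the second ferredoxin-dependent glutamate synthase, rose by 0.64 ± 0.07, where GLU1 fell, and SHM2 rose by 0.40 ± 0.06, where SHM1 fell. Others went the way of the set: FBA5, an aldolase, fell (-1.08 ± 0.17), and GDCH3, the H protein gene with the highest level (-0.97 ± 0.06).

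**Figure D4:**
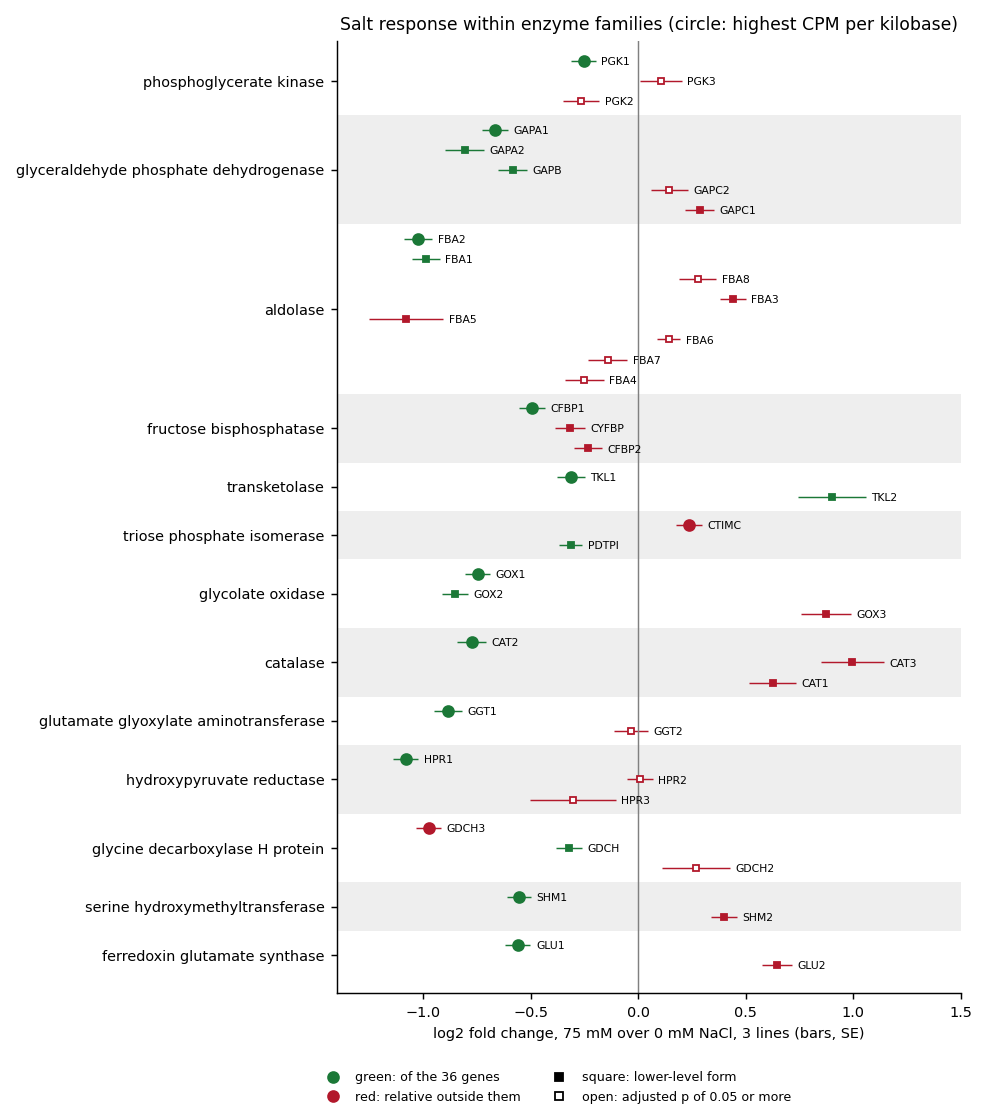
Log2 fold change of 75 over 0 mM NaCl in the 3 lines (edgeR, bars are SE) for 13 enzyme families, with the gene of highest CPM per kilobase as a circle and the others as squares in order of level. Green symbols, from the 36 genes, lie left of 0 but for TKL2, while red symbols, their relatives, fall on both sides.

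Other genes of the same processes were read as counts of genes passing the edgeR test in the 3 lines. In that fit 15.5% of all genes tested rose and 14.4% fell. Some of these lists repeat the 23 relatives above, so their counts are not separate from those of the relatives. The relatives include all 10 genes of cytosolic glycolysis and gluconeogenesis. Among the 22 further Calvin cycle and photorespiration genes they include PGK2, FBA3, CFBP2, GOX3, GGT2, HPR2, HPR3, GDCH2, GDCH3, SHM2 and GLU2. Of 22 further Calvin cycle and photorespiration genes 6 rose and 7 fell, with the falls led by BOU, a mitochondrial carrier needed for photorespiration (-0.99 ± 0.09), GDCH3, and PMDH2, a peroxisomal malate dehydrogenase (-0.95 ± 0.06), and the rises by GOX3, GLU2 and MTLPD2, a mitochondrial lipoamide dehydrogenase (0.45 ± 0.05). Of 13 genes for Rubisco assembly and carbon dioxide supply 12 fell and 1 rose, RBCX1, a Rubisco chaperone, by 0.94 ± 0.15. The falls were led by the carbonic anhydrase genes CA1 (-1.45 ± 0.23) and CA2 (-0.68 ± 0.06) and by RAF2, an assembly factor (-0.72 ± 0.06). The list includes RBCL, the large subunit encoded in the chloroplast, at -0.47 ± 0.12, which had 8.24 to 16.9 CPM in the 8 libraries. RBCS1A averaged 10882 CPM over the same libraries. How fully chloroplast transcripts were captured was not tested, so the RBCL value may not stand for its level in the plant. Of 7 genes that activate the cycle by reduction 5 fell and none rose, led by the thioredoxins TRXF1 (-0.60 ± 0.05) and TRXM1 (-0.59 ± 0.05) and by NTRC (-0.48 ± 0.06). In the oxidative pentose phosphate pathway, which makes NADPH without light, 5 of 9 genes rose and none fell, led by the glucose 6-phosphate dehydrogenases G6PD5 (0.90 ± 0.06) and G6PD6 (0.66 ± 0.07) and the transaldolase TRA2 (0.65 ± 0.07). In cytosolic glycolysis and gluconeogenesis 2 of 10 genes rose (GAPC1 by 0.29 and CTIMC) and 2 fell (FBA5 and, at -0.32, the fructose bisphosphatase CYFBP). Of 11 transcription regulators of nuclear photosynthesis genes none rose and 5 fell, led by HYH, a factor of light signalling (-1.71 ± 0.08), GNC, a GATA factor (-0.79 ± 0.20), and GBF1, a G-box binding factor (-0.46 ± 0.06). Scaled by library totals, 8 rose and 6 fell among the further Calvin cycle and photorespiration genes, 1 rose and 8 fell for Rubisco assembly, and 3 fell for activation by reduction. With that scaling 6 rose in the pentose phosphate pathway, 5 rose and 1 fell in glycolysis, and 2 rose and 4 fell among the regulators. Of all genes 26.8% then rose and 9.66% fell. Without the empty vector line 8 fell and none rose for Rubisco assembly, 3 fell for activation by reduction, 3 rose in the pentose phosphate pathway, none passed in glycolysis and 2 fell among the regulators, with 4.23% of all genes higher and 5.36% lower in that fit.

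Some markers of tissue and time of day also differed with salt. Beside the counts below, 15.5% of all genes tested rose and 14.4% fell in this fit. The 13 antenna genes, taken as leaf markers, summed to 50225 to 56398 CPM at 75 mM and 66218 to 67195 CPM at 0 mM in the 3 lines, with 11 falling and 1, LHCB1.4, rising by 0.36 ± 0.06. Their median log2 fold change was -0.39. Root markers summed to 1785 to 2504 CPM at 75 mM and 1428 to 1518 CPM at 0 mM, where 3 of 13 rose (PYK10, BGLU22 and RHD6) and none fell. Flower markers, of which 4 of 7 could be tested, summed to 3.72 to 17.1 CPM at 75 mM and 12.3 to 21.1 CPM at 0 mM, with SEP3 and AP1 falling. Of 9 clock genes 5 rose, led by PRR5 (1.65 ± 0.18), GI (0.78 ± 0.07) and LUX (0.60 ± 0.12), and 3 fell, the morning genes LHY (-1.95 ± 0.09), RVE8 (-1.46 ± 0.08) and CCA1 (-1.18 ± 0.12). LHY stood at 87.5, 68.6 and 84.1 CPM at 75 mM, against 388, 269 and 277 CPM at 0 mM. The part of tissue make-up and of time of day in the falls of the 36 genes was not tested, and times of harvest are not given. Without the empty vector line 2 antenna genes and no flower marker fell, 1 root marker rose, and 2 clock genes rose and 3 fell. In that fit 4.23% of all genes were higher and 5.36% lower. Without T31-5 no flower marker fell, 2 root markers rose, and 3 clock genes rose and 3 fell, with 8.63% of all genes higher and 9.09% lower.

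Over all 4 lines none of the 36 genes passed, as for 0% of all genes (edgeR with line as a block). At an unadjusted p under 0.05 there were 31 of them, 30 lower and 1 higher, against 29.2% of all genes, and DESeq2 called 25, against 8.70%. The median log2 fold change over the set was -0.51, and 34 genes were below 0. Without T43-11 the fit is that of the 3 lines, with 35 genes called, and without any other single line it stayed at 0.

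The library labelled T43-11 at 0 mM was next set against the other 3 unsalted lines, a comparison of 1 library with 3. The line was chosen with earlier results of these data known. Of the 36 genes 20 were lower, against 5.08% of all genes, and 1 was higher, TKL2, against 7.17% (edgeR, adjusted p under 0.05). At 34 of the 36 genes the T43-11 library was below all other unsalted libraries, which held for 34.4% of all genes, and the exceptions were TKL2 and CP12-3. HPR1 had 666 CPM in T43-11 at 0 mM, against 1651, 1346 and 1330.2 CPM in the 3 lines, a difference of -1.11 ± 0.17 on the log2 scale (edgeR adjusted p = 0.0217). GGT1 had 2159 CPM, against 4776, 4002 and 4037 CPM, a difference of -0.98 ± 0.15 (edgeR adjusted p = 0.0224). The lowest value was that of GLDP2, -1.26 ± 0.24 (edgeR adjusted p = 0.0317). RBCS1A, at 9138 CPM, was also the lowest of the unsalted libraries but did not pass (-0.51 ± 0.15, edgeR adjusted p = 0.0774). The unsalted T43-11 library was close to salted ones: its log2 ratio to T31-5 at 75 mM was -0.13 to 0.17 over the 36 genes, and its ratio to T31-5 at 0 mM had a median of -0.61. Its root markers (2337 CPM) and LHY (60.3 CPM) were likewise near the salted values of the other lines, and its antenna sum of 59728 CPM lay between the salted and unsalted ranges.

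The count rests on how the other lines are taken. With T31-5 and the empty vector line summed as 1 line it was 5 genes, against 4.39% of all genes called. Without the empty vector line it was 0, against 2.85%, with 28 at an unadjusted p under 0.05, against 23.7%. Without T31-5 it was 12, against 5.79%, and without Col-0 35, against 46.0%, so these counts rest on fits that called very different numbers of genes.

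The salt response of T43-11 differed from that of the other 3 lines at 17 of the 36 genes, each time with a higher log2 response in T43-11, against 1.33% of all genes higher (edgeR interaction term, adjusted p under 0.05). The differences ran from 0.70 for RPI3 to 1.16 for RBCS2B. T43-11 was set apart because earlier results of these data had shown its libraries to be nearly equal. These calls describe that pattern and are not an independent test of it. In T43-11 RBCS2B had 1689 CPM with salt and 1587 CPM without, where each other line was lower with salt, and its difference was 1.16 ± 0.13 (edgeR adjusted p = 0.0241). For HPR1, with 673 CPM with salt and 666 CPM without in T43-11, it was 1.09 ± 0.12 (edgeR adjusted p = 0.0237). By role 4 of 5 Rubisco genes, 5 of 14 other Calvin cycle genes, 0 of 3 CP12 genes, 5 of 7 peroxisomal genes and 3 of 7 genes of the later steps passed. The count was 11 when scaled by library totals, against 0.632% of all genes higher, and 31 without Col-0, against 6.25%. It was 6 without T31-5, against 0.598%. It was 0 without the empty vector line and 0 with that line and T31-5 summed, with 0% of all genes higher. In each of these last 3 fits 29 genes had an unadjusted p under 0.05, against 15.0, 12.2 and 14.2% of all genes in that order.

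Col-0 at 75 mM was set against the 3 transgenic lines at 75 mM. Of the 36 genes 10 were higher in Col-0, against 5.46% of all genes, and none was lower (edgeR, adjusted p under 0.05). By role these were 4 of 7 peroxisomal genes, 2 of 7 of the later photorespiratory steps, 3 of 14 Calvin cycle enzymes and 1 of 3 CP12 genes. CAT2 had 2313 CPM in Col-0, against 1626, 1466 and 1517 CPM in empty vector, T31-5 and T43-11 plants, a log2 fold change of 0.59 ± 0.08 (edgeR adjusted p = 0.00409). GLDP2 had 1215 CPM in Col-0, against 873, 831 and 822 CPM, a fold change of 0.53 ± 0.07 (edgeR adjusted p = 0.00419). For GGT1 it was 0.41 ± 0.07 (2811 CPM, against 2110.4, 2063 and 2164 CPM) and for GOX2 0.40 ± 0.07. AGT1, GLYK, RPI3, CP12-2, FBA1 and TKL1 were higher by 0.27 to 0.36. None of the Rubisco small subunit genes or RCA passed. RBCS1A differed by 0.05 ± 0.08, a value that turned negative when scaled by library totals, and RCA by 0.21 ± 0.08 (edgeR adjusted p = 0.758 and 0.111).

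**Figure D5:**
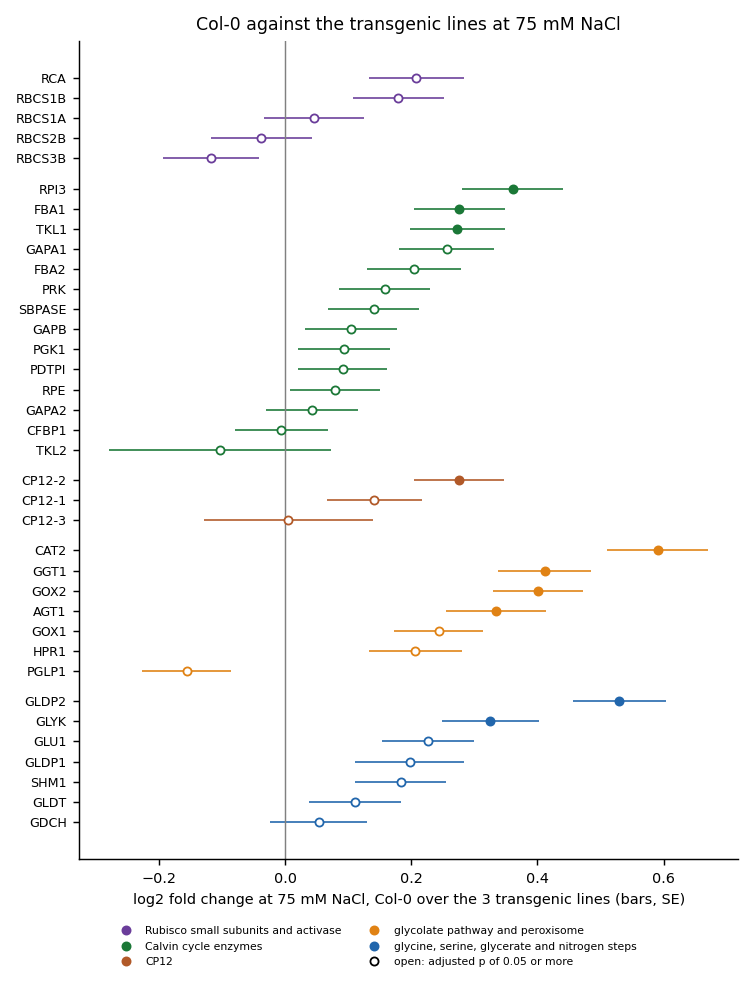
Log2 fold change at 75 mM NaCl of Col-0 over the 3 transgenic lines for the 36 genes (edgeR, bars are SE), by role, with filled points for an adjusted p under 0.05. The 10 filled points lie between 0.27 and 0.59, and CAT2 and GLDP2 are the highest.

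At 30 of the 36 genes Col-0 was above the other lines at 75 mM, against 36% of all genes. At 0 mM it was above the empty vector line and T31-5 at 34 genes, against 42%, which is given without a test. CAT2, for example, had 4171 CPM in Col-0 at 0 mM, against 2549 and 2598 CPM. Over the set the median log2 ratio of Col-0 over the empty vector line was 0.16 at 75 mM and 0.30 at 0 mM. The count of 10 was 4 when scaled by library totals, against 3.45% of all genes higher, 6 without T31-5, against 5.68%, 3 without T43-11, against 1.91%, and 12 without the empty vector line, against 7.70%. Col-0 at 75 mM was 1 library, the one with the fewest reads, and it also had the lowest antenna sum (50225 CPM) and the lowest root marker sum (1785 CPM) of the salted libraries. Among the root markers 4 of 13 were lower in it (CASP1, MYB36, BGLU22 and PYK10), against 5.4% of all genes, and none was higher. Of the relatives that rose with salt, GOX3 (-0.54 ± 0.13) and GLU2 (-0.30 ± 0.07), picked after their values were seen, were lower in it. The part of tissue make-up in the difference was not tested.

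The 3F-VP16 lines were compared with the control lines at each salt level. At 75 mM none of the 36 genes passed, as for 0% of all genes (edgeR; 1 gene at an unadjusted p under 0.05, and 0 called by DESeq2). The median log2 fold change was -0.10, with 31 genes below 0. CAT2 showed the widest gap, at 1466 and 1517 CPM in T31-5 and T43-11 against 2313 and 1626 CPM in Col-0 and the empty vector line, a fold change of -0.40 ± 0.17 (edgeR adjusted p = 0.654). Without the empty vector line this is the fit of Col-0 against T31-5 and T43-11 counted above, with the sign reversed (median -0.19), and no second result. Without Col-0 none passed, the median was -0.02 and 10 genes changed sign. At 0 mM none passed either, as for 0% of all genes (edgeR; 0 genes at an unadjusted p under 0.05, and 0 called by DESeq2). T43-11 was low here and T31-5 near the empty vector line. The median was -0.43. Without T31-5 this is the fit of T43-11 against Col-0 and the empty vector line counted above (median -0.77), and no second result.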

How the data were processed

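RNA-seq read counts per gene, as deposited by the authors, were used for 8 libraries of whole plants. Per the submitters' processing notes, reads were aligned with TopHat2 2.0.5 to TAIR10 and counted with HTSeq; the strand setting, the annotation version and the treatment of reads with several matches are not stated. The counts were raw, and summary rows (2.49 to 2.60% of reads) and rows for transgenes were left out of library sizes. Genes with at least 0.468 CPM (10 counts in the median library) in at least 2 libraries were kept, 20585 of 25498 with any read. The edgeR 4.0.16 quasi-likelihood test in R 4.3.3 (TMM factors, robust fit, Benjamini-Hochberg adjustment over all kept genes, threshold 0.05) was the main test and DESeq2 1.42.0 an alternative. SE is the log2 fold change divided by the root of its F value. CPM use TMM factors over all 8 libraries.

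Lines served as replicates, with 2 or 3 residual degrees of freedom per main fit, and the biological coefficient of variation was 7.02 to 21.0% in these. Fits with a line left out, or with the empty vector and T31-5 counts summed, had fewer residual degrees of freedom. Their counts of genes passing thus rest on less certain error estimates. A single library set against 3 is assumed to vary like the others. No test was run on single lines. The scripts were tested on simulated counts. Alternatives were RLE factors, library totals, no filter on low counts, DESeq2, no line block, summed empty vector and T31-5 counts, and each line left out in turn.

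The genes and lists were chosen with earlier results of these data known. Values by library were given for the gene of highest CPM per kilobase in each role and for genes moving against their role, and up to 3 genes in each direction for other lists. Sequences came from RefSeq (TAIR10.1), and 31912 gene identifiers matched it. Figures used matplotlib 3.10.9.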

Additional observations from a re-analysis of the deposited data

Results flagged for a closer look

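Single libraries stood apart from the other 3 at the same salt level for 10 of the 72 groups of 4 libraries examined (36 genes at each salt level), by Dixon's test of the gap to the nearest library. Chance flags about 1 in 20 groups when groups are independent. These groups share the same 8 libraries, so the total of 10 cannot be judged against that rate. In 8 of the 10 the library was Col-0 at 75 mM. It was high for RCA (9925 CPM, others 8552 to 8676), FBA1 (1152 CPM, others 935 to 972), GOX1 (1417 CPM, others 1191 to 1205) and GOX2 (829.9 CPM, others 621 to 643). It was also high for GGT1 (2811 CPM, others 2063 to 2164), GLDP2 (1215 CPM, others 822 to 873) and SHM1 (1890.4 CPM, others 1652 to 1672). It was low for PGLP1 (129 CPM, others 143 to 145). T31-5 at 75 mM was low for GDCH (164 CPM, others 176 to 179), and T43-11 at 0 mM was low for CP12-1 (455 CPM, others 564 to 574).

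The log2 salt response was higher in T43-11 than in the other lines at 17 genes by the edgeR interaction term. That line was set apart with earlier results of these data known. The difference was 1.07 for RBCS1B, 1.16 for RBCS2B, 0.96 for RBCS3B and 0.94 for RCA. In the rest of the Calvin cycle it was 1.03 for FBA1, 1.03 for FBA2, 0.96 for SBPASE, 0.71 for PRK and 0.70 for RPI3. In the peroxisomal steps it was 0.79 for GOX1, 0.85 for GOX2, 0.76 for CAT2, 0.89 for GGT1 and 1.09 for HPR1, and in glycine decarboxylase 0.90 for GLDP1, 1.02 for GLDP2 and 0.75 for GLDT.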

How the results depend on the processing

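None of the 36 genes changed direction in the salt response of the 3 lines, in T43-11 at 0 mM or in the response of T43-11 under the alternatives run, nor did any gene that passed for Col-0 at 75 mM. Genes that did not pass there did change sign: GAPA2, RBCS1A, CP12-3 and GDCH with library totals, CFBP1 with RLE factors, without T31-5 or without T43-11, and CP12-3 and TKL2 without the empty vector line. For the 3F-VP16 lines, where no gene passed, up to 10 genes changed sign at 75 mM (without Col-0) and TKL2 did at 0 mM (without T43-11). The salt response in the 3 lines called 35 of the 36 genes, and 27 to 35 when each line was left out, 35 with RLE factors, no filter or DESeq2, 32 with library totals, 30 with no line block and 28 with the empty vector and T31-5 counts summed. Over 4 lines the count was 0, but 25 with DESeq2 and 0 to 35 when each line was left out. For T43-11 against the other lines at 0 mM it was 21 (20 lower), 5 with the counts summed and 0 to 35 with lines left out. For the response of T43-11 against the others it was 17, 11 with library totals, 0 with the counts summed, an alternative chosen after seeing the data, and 0 to 31 with lines left out. For Col-0 against the transgenic lines at 75 mM it was 10, 4 with library totals and 3 to 12 with lines left out. For the 3F-VP16 lines it was 0 at either salt level, with 0 to 12 at 75 mM and 0 to 12 at 0 mM when lines were left out. The highest counts for the 3F-VP16 lines at 75 and 0 mM come from the Col-0 and T43-11 fits already counted. The cause of these changes in count was not tested. Library totals also moved the share of higher genes among all genes called to 73.5%, against 51.8% with TMM, for the salt response in the 3 lines, to 72.9%, against 58.5%, for T43-11 at 0 mM, to 28.95%, against 54.6%, for the response of T43-11, and to 31.6%, against 50.3%, for Col-0 at 75 mM. DESeq2 gave 40.5% for T43-11 at 0 mM. The more common direction over all genes thus changed in the last 2 of the 4 with library totals and for T43-11 at 0 mM with DESeq2. For the salt response in the 3 lines it changed too, to 46.6% higher with RLE factors and 44.8% with DESeq2. There it also changed with the empty vector and T31-5 counts summed (47.9%), without the empty vector line (44.1%) and without T31-5 (48.7%). Not every such change is listed for the other comparisons. No paired analysis by replicate number was possible because each line has 1 library per salt level. With 1 library each, line, plant batch and library preparation cannot be told apart.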
